A study of Drosophila melanogaster with 6 samples.

Results

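Dopamine, octopamine, tyramine and serotonin genes were examined in the heads of flies whose ancestors had been exposed to a high-sugar diet (HSD). The 31 genes were taken from the 17545 genes of the count tables by their locus tags and not by any measured value. They comprised 8 genes of synthesis, 4 of transport, 3 of inactivation or its reversal (called inactivation genes below), 4 dopamine receptors, 7 octopamine and tyramine receptors and 5 serotonin receptors. RNA-seq was performed on 3 libraries of HSD-F1 heads and 3 libraries of heads from normal diet (ND) controls. Mothers of HSD-F1 flies were raised on food with 20% sucrose and mothers of ND flies on food with 10% sucrose, and the HSD-F1 flies themselves grew up on ND. In the study's design, flies raised on HSD were mated to give the HSD-F1 flies, so exposure of the mothers alone is not isolated here. All flies were 5 days old and carried the genotype W+VDRC according to the labels, although the study's design drawing names Canton-S as its wild type. Each library pooled several heads of females, so that single animals and single brain regions cannot be resolved, and nothing in the labels says whether the replicates came from separate crosses.

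Monoamines are made from aromatic amino acids. Tyrosine is hydroxylated to DOPA and decarboxylated to dopamine, or decarboxylated directly to tyramine, from which octopamine is made, and tryptophan gives serotonin by the same kind of steps. The amines are loaded into vesicles, released onto G-protein-coupled receptors, and in flies removed by reuptake or by conjugation to acetyl or β-alanyl groups. In Drosophila, dopamine is also a precursor of cuticle pigment, and dopamine and octopamine neurons are known to modulate feeding and the response to sugar.

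The libraries held between 20266352 and 26190694 counts in HSD-F1 and between 25256945 and 25857436 in ND, with HSD-F1 replicate 1 the shallowest. Levels are given as CPM, the count rescaled to a common library size after normalization by the trimmed mean of M-values (TMM). Differences were tested by edgeR's quasi-likelihood method on the 12048 genes whose counts summed to at least 10, and p-values were adjusted over them after Benjamini and Hochberg. Estimates are log2 fold changes of HSD-F1 over ND, given ± their standard error (SE). Brain tissue was well represented, since the 10 neuronal markers summed to between 6529 and 7521 CPM in HSD-F1 and between 6944 and 7006 CPM in ND, and elav, nSyb and the glial marker repo were present in every library. Photoreceptor markers summed to between 37473 and 49279 CPM in HSD-F1 and between 42809 and 44748 CPM in ND, fat body markers to between 64400 and 82725 CPM in HSD-F1 and between 65382 and 80678 CPM in ND, and glial markers to between 2588 and 2929 CPM in HSD-F1 and between 2756 and 2913 CPM in ND. HSD-F1 replicate 1 had the highest neuronal and fat body sums and the lowest photoreceptor and glial sums of the 6 libraries. Ovary and egg markers summed to 54.2 CPM in ND replicate 3, against 2.23 to 11.7 CPM in the other libraries. Male markers summed to between 11.3 and 14.4 CPM in HSD-F1 and between 11.4 and 15.6 CPM in ND. Most of this was roX1, at 10.4 to 14.4 CPM over the 6 libraries. Of the marker genes, fne, a neuronal RNA-binding protein, had an unadjusted p-value under 0.05 (edgeR adjusted p = 0.911, log2 fold change 0.34), and the other 9 neuronal markers did not. Because heads were sequenced whole, fewer cells of a type and less RNA per cell cannot be told apart in any value below.

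All 31 genes were detected in every library, with between 63 and 19047 counts, and all 31 passed the filter on low counts. None of the 31 passed a test between HSD-F1 and ND heads. With edgeR's quasi-likelihood test, 0 of 31 had an adjusted p-value under 0.05, where 0.0664% of all tested genes did, and the lowest adjusted p-value among them was 0.911. At an unadjusted p-value under 0.05 there were also 0 of 31, against 5.07% of all genes, and none met the study's criterion of this p-value with a 1.5-fold change, which 1.81% of all genes met. DESeq2 and limma-voom each called 0 of 31 as well at either threshold, where they called 3.98% and 5.1% of all genes at the unadjusted threshold and 0.233% and 0.0415% at the adjusted one. Of the 31 genes, 12 had a positive and 19 a negative log2 fold change, with a median of -0.02, beside a median of 0.00 over all genes tested (-0.0026). The estimates ranged from -0.32 for tan to 0.21 for Octbeta2R on the log2 scale.

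The libraries set a bound on what could have been missed. For 29 of the 31 genes the 95% interval of the fold change lay within 1.5-fold in either direction, whereas this was so for 61.9% of all genes, many of which had fewer counts. The exceptions were ple, with an interval from 0.576 to 1.32 times the ND level, and tan, with 0.558 to 1.15 times. These intervals are for single genes and are not adjusted for the number of genes. They were built from the standard errors of edgeR's fit and express the uncertainty of each fold change, not the range of the libraries. Differences within an interval were not resolved with this number of libraries.

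**Figure D1:**
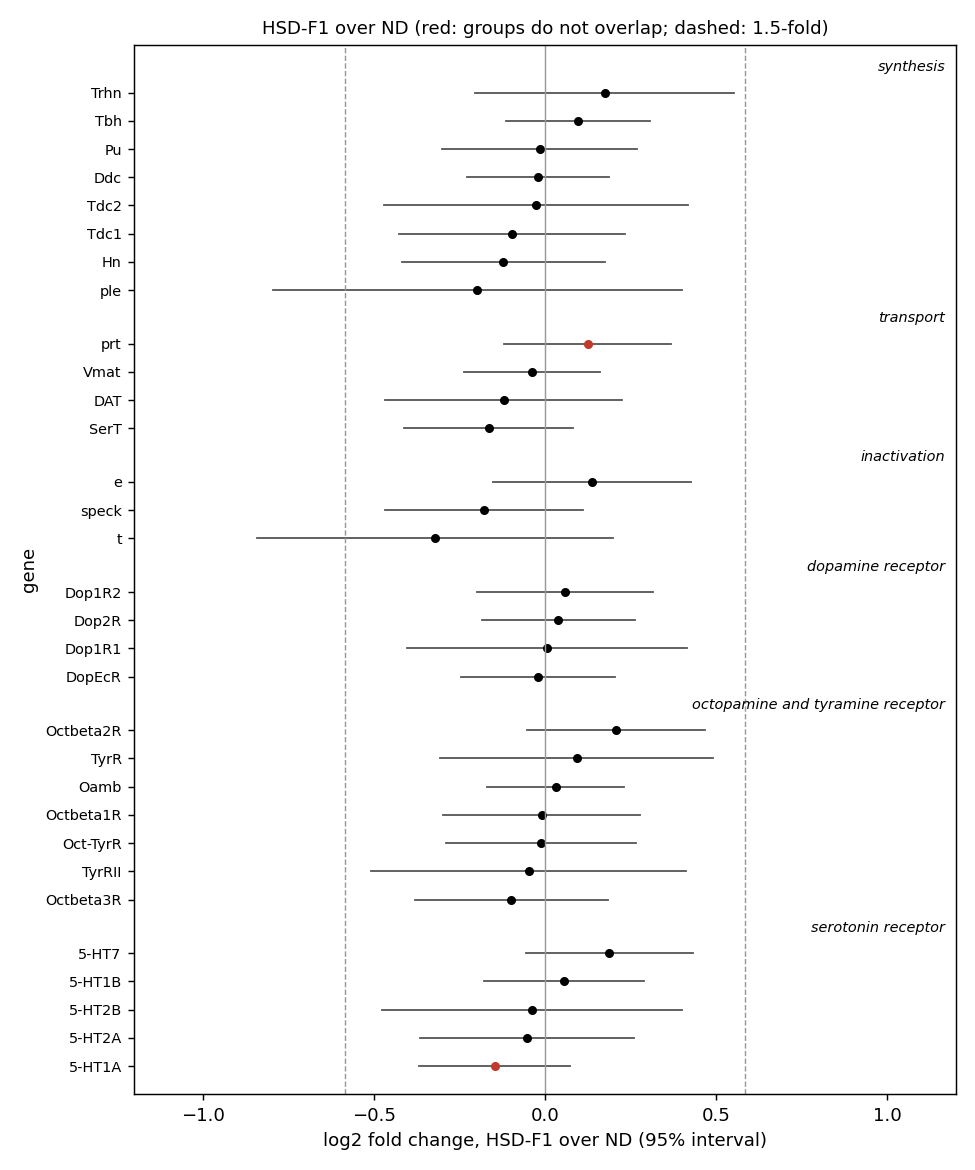
Log2 fold change of HSD-F1 over ND for each of the 31 genes with its 95% interval from edgeR's quasi-likelihood test, grouped by role; dashed lines mark a 1.5-fold change and red points the 2 genes whose groups did not overlap. Every interval includes 0, and those of ple and t (tan) pass the dashed line on the lower side.

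Levels differed far more between the genes than between the groups. To compare genes, CPM was divided by the exon length in kilobases, and on this scale the mean over the 6 libraries spanned from 0.922 CPM per kb for TyrRII to 322 CPM per kb for Hn. A few genes dominated the counts. Hn, tan, Pu and DopEcR together held 55.5% of all counts on the 31 genes. The whole set made up between 0.292% and 0.317% of the counts of an HSD-F1 library and between 0.319% and 0.333% of those of an ND library, as shares of the raw totals. After TMM scaling the summed levels overlapped, at 2986 to 3185 CPM in HSD-F1 and 3109 to 3378 CPM in ND. By role, the summed CPM of the inactivation genes was 650, 758 and 620 in HSD-F1 replicates 1, 2 and 3 against 889, 789 and 657 in ND replicates 1, 2 and 3, and that of the synthesis genes was 1262, 1344 and 1329 in HSD-F1 against 1429, 1393 and 1335 in ND. Both pairs of sums overlapped. The inactivation sum includes tan, which acts opposite to ebony, so it does not measure inactivation as such. Of its genes, tan and speck had negative log2 fold changes (-0.32 and -0.18) and ebony a positive one (0.14). The dopamine receptors summed to 364 to 401 CPM in HSD-F1 and 366 to 414 CPM in ND, and the serotonin receptors to 172 to 188 CPM in HSD-F1 and 177 to 192 CPM in ND. The octopamine and tyramine receptors summed to 248, 235 and 229.7 CPM in HSD-F1 against 227, 232 and 231 CPM in ND, so that 2 of the 3 HSD-F1 libraries lay above every ND library and the third within their range.

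**Figure D2:**
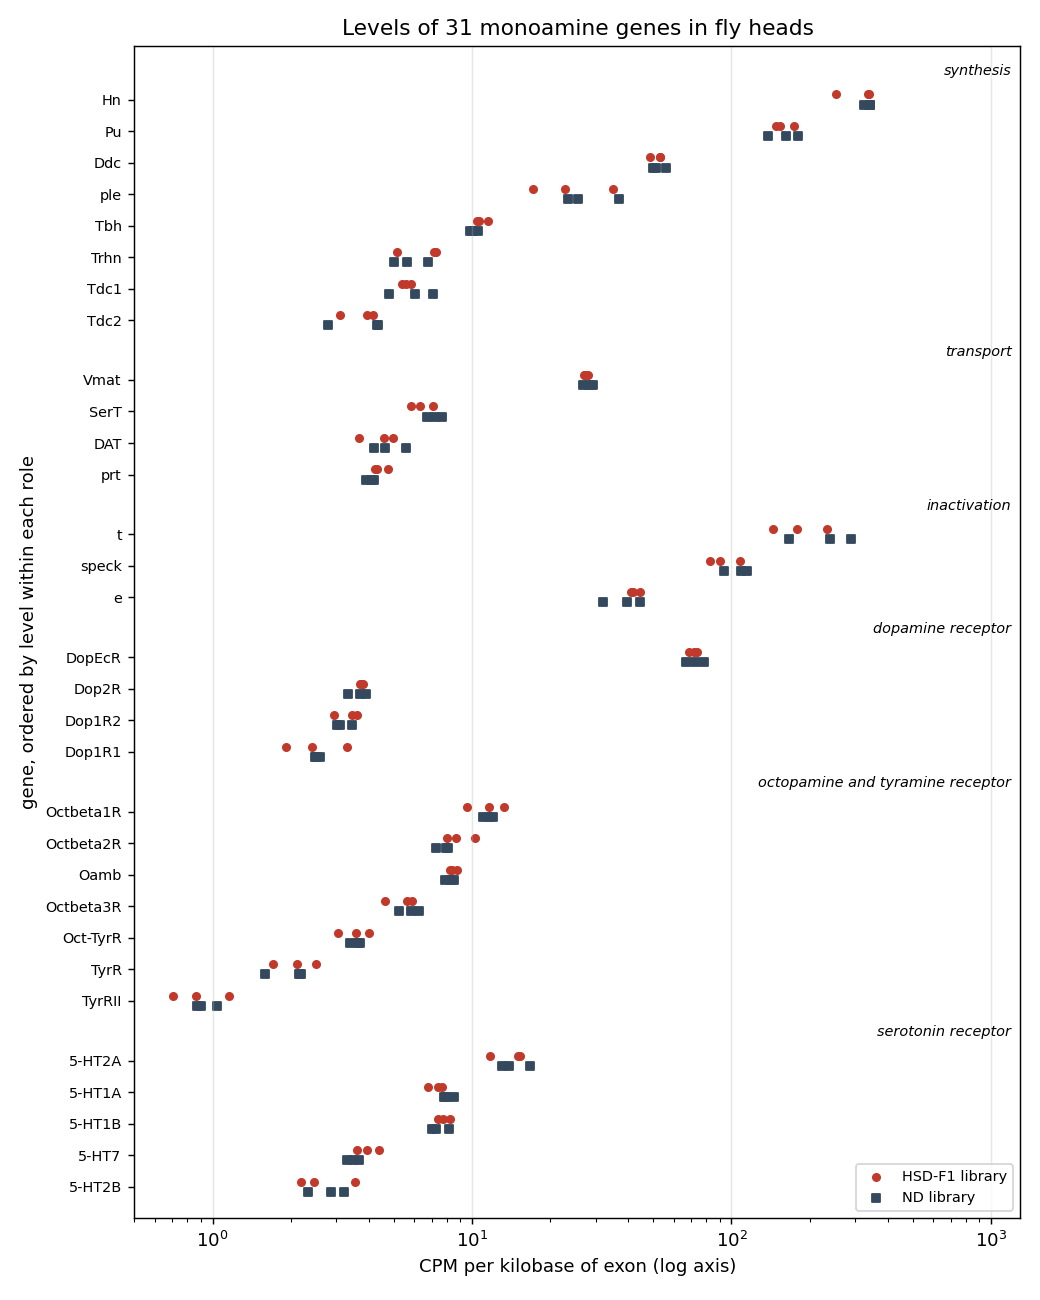
Level of each of the 31 genes in CPM per kilobase of exon (log axis), with 1 point for each of the 3 HSD-F1 libraries (red circles, upper row) and the 3 ND libraries (dark squares, lower row), grouped by role and ordered by the mean. Hn stands highest at 322 and TyrRII lowest at 0.922 CPM per kb, and the 2 groups lie on top of each other for nearly all genes.

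Among the synthesis genes, Hn, the phenylalanine hydroxylase that supplies tyrosine, had the highest level per kilobase. It (Dmel_CG7399) lies on chromosome 3L from 7760453 to 7763166 on the plus strand of Release 6. Hn had 534, 711 and 715 CPM in HSD-F1 replicates 1, 2 and 3, against 685, 723 and 724 CPM in ND replicates. HSD-F1 replicate 1 alone was low, and the other HSD-F1 libraries were within the ND range. The estimate was -0.12 ± 0.13 on the log2 scale (edgeR adjusted p = 0.959) and 0.0044 without HSD-F1 replicate 1. That library also had the highest neuronal and the lowest photoreceptor and glial marker sums, and the part of this in its Hn level was not tested. Pu, the GTP cyclohydrolase that starts the synthesis of the tetrahydrobiopterin cofactor of the hydroxylases and also serves eye pigments, followed at 160 CPM per kb, with 342 ± 29.3 CPM in HSD-F1 and 345 ± 45.6 CPM in ND (SD, n = 3 each). Ddc, the decarboxylase that makes both dopamine and serotonin, was among the steadier genes, with 144 ± 6.82 CPM in HSD-F1 and 146 ± 8.78 CPM in ND (SD, n = 3 each), and a fold of 0.986 with an interval from 0.854 to 1.14. CG10561, with 711 to 867 counts, overlaps 88 exonic bases of Ddc on the opposite strand. Reads there could belong to either gene, since the use of strand is not given.

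ple encodes tyrosine hydroxylase, the rate-limiting enzyme of dopamine synthesis. It (Dmel_CG10118) lies on chromosome 3L from 6713356 to 6719525 on the minus strand. It had 133, 87.1 and 65.3 CPM in HSD-F1 replicates 1, 2 and 3 and 140, 97.7 and 89.0 CPM in ND replicates 1, 2 and 3. In both groups replicate 1 was well above the other libraries, and the 2 groups overlapped. The highest library was 2.03 times the lowest within HSD-F1 and 1.58 times within ND, whereas the means of 95.1 ± 34.5 CPM in HSD-F1 and 109 ± 27.5 CPM in ND (SD, n = 3 each) differed by less than either SD. This was the largest spread within groups of the 31 genes. The estimate was -0.20 ± 0.26 (edgeR, adjusted p = 0.964). It depended on single libraries, being -0.52 without HSD-F1 replicate 1 (unadjusted p under 0.05, adjusted p = 0.698 in edgeR), 0.01 without HSD-F1 replicate 3 and 0.03 without ND replicate 1. Ddc, the next enzyme of the same pathway, did not share this spread, so that the per-kilobase ratio of ple to Ddc was 0.659, 0.432 and 0.352 in HSD-F1 and 0.738, 0.504 and 0.419 in ND.

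The genes that mark serotonin and octopamine neurons were far less abundant. Trhn, also known as Trh, the tryptophan hydroxylase of serotonin neurons, had 11.2, 15.6 and 15.9 CPM in HSD-F1 against 10.9, 14.8 and 12.2 CPM in ND. Replicate 1 was the lowest library of each group, and the estimate was 0.17 ± 0.17. CG13912, with 309 to 686 counts, overlaps 89 exonic bases of Trhn on the opposite strand. Since the use of strand is not given, reads there could belong to either gene. Tdc1 and Tdc2, neighboring genes for tyrosine decarboxylases of which Tdc2 is the neuronal one, lie side by side on chromosome 2R. Tdc2 had 7.15, 9.56 and 9.08 CPM in HSD-F1 and 10.0, 9.91 and 6.40 CPM in ND, so that the lowest library was ND replicate 3. Tdc1 averaged 12.7 ± 0.504 CPM in HSD-F1 and 13.6 ± 2.60 CPM in ND (SD, n = 3 each). Of its exons, 246 bases overlap Rpp25 on the opposite strand, which had 227 to 537 counts, and since the use of strand is not given, reads there could belong to either gene. Tbh, which converts tyramine to octopamine, was steady at 41.9 ± 2.24 CPM in HSD-F1 and 39.2 ± 1.38 CPM in ND (SD, n = 3 each), a fold of 1.07 with an interval from 0.925 to 1.24.

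Of the transporters, Vmat (Dmel_CG33528, chromosome 2R, 13513132 to 13534251, minus strand), which fills vesicles with all of these amines, had the highest level per kilobase (27.7, against 6.80 for SerT, 4.60 for DAT and 4.23 for prt), and only the ranges of DAT and prt overlapped. Vmat had 228, 219 and 221 CPM in HSD-F1 and 238, 218 and 230 CPM in ND. It showed the smallest spread within groups of the 31 genes, and its estimate was -0.04 ± 0.09, with an interval of the fold from 0.849 to 1.12. CG13330 shares 2129 exonic bases with Vmat on the opposite strand but had 0 counts in every library. SerT, the serotonin reuptake transporter, had 21.8, 26.4 and 23.5 CPM in HSD-F1 and 24.98, 28.4 and 26.9 CPM in ND. The estimate for SerT was -0.16 ± 0.11 (edgeR, adjusted p = 0.917), and HSD-F1 replicate 2 lay inside the ND range. DAT, the dopamine reuptake transporter, averaged 13.4 ± 2.07 CPM in HSD-F1 and 14.6 ± 2.15 CPM in ND (SD, n = 3 each).

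prt (portabella, Dmel_CG10251, chromosome 3R, 23696372 to 23699027, minus strand), a gene related to Vmat that is expressed in the mushroom body, was 1 of 2 genes whose groups did not overlap. It had 9.37, 9.17 and 10.3 CPM in HSD-F1 against 8.85, 8.51 and 9.11 CPM in ND, so that the lowest HSD-F1 library was barely above the highest ND library (239 counts in HSD-F1 replicate 2 and 236 in ND replicate 3). prt gave 0.12 ± 0.11 (log2 fold change ± SE, edgeR, adjusted p = 0.942). The other was the serotonin receptor gene 5-HT1A (Dmel_CG16720, chromosome 2R, 19067155 to 19121958, plus strand), which had 37.1, 38.6 and 34.1 CPM in HSD-F1 against 42.8, 39.0 and 39.8 CPM in ND. It gave -0.15 ± 0.10 (log2 fold change ± SE, edgeR, adjusted p = 0.917). An exact permutation over all 20 assignments of the libraries returned a two-sided p = 0.1 for either gene, which is the smallest that 3 against 3 libraries allow. Groups did not overlap in 11.8% of all tested genes (6.67% higher and 5.17% lower in HSD-F1), so that 2 of 31 is not above the background.

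The inactivation genes stood high in heads. tan (t, Dmel_CG12120), which releases dopamine and, in photoreceptors, histamine from their β-alanyl conjugates, is a gene of the X chromosome (9217655 to 9223257, minus strand) and had 209 CPM per kb. Its levels were 354, 460 and 286 CPM in HSD-F1 replicates 1, 2 and 3 and 572, 473 and 329 CPM in ND replicates 1, 2 and 3. The groups overlapped, since HSD-F1 replicate 2 was above ND replicate 3, and replicate 3 was the lowest library of each group. With means of 366 ± 87.7 CPM in HSD-F1 and 458 ± 122 CPM in ND (SD, n = 3 each), the gap was within 1 SD of the ND libraries. This gap was slightly over 1 SD of the HSD-F1 libraries. tan had the largest negative estimate of the 31 genes, -0.32 ± 0.23 (edgeR, adjusted p = 0.930). Leaving out ND replicate 3 gave -0.51 (unadjusted p under 0.05, adjusted p = 0.999997 in edgeR), leaving out HSD-F1 replicate 2 gave -0.52, and leaving out ND replicate 1 gave -0.13.

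ebony (e, Dmel_CG3331), the glial enzyme that attaches β-alanine to dopamine and histamine and thus acts opposite to tan, had 139, 128 and 132 CPM in HSD-F1 and 100, 139 and 124 CPM in ND. ND replicate 1 was the one low library, and the log2 fold change of 0.14 (standard error 0.13) was 0.02 without it. The per-kilobase ratio of tan to ebony was 4.03, 5.69 and 3.45 in HSD-F1 and 9.09, 5.40 and 4.22 in ND. The high ND value came from replicate 1, which had both the most tan and the least ebony. speck, the arylalkylamine N-acetyltransferase that acetylates dopamine and serotonin, had 156, 170 and 203 CPM in HSD-F1 and 217, 177 and 205 CPM in ND. HSD-F1 replicate 3 was within the ND range, and the log2 fold change of -0.18 (standard error 0.13) was -0.29 without this library (unadjusted p under 0.05, adjusted p = 0.852 in edgeR).

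**Figure D3:**
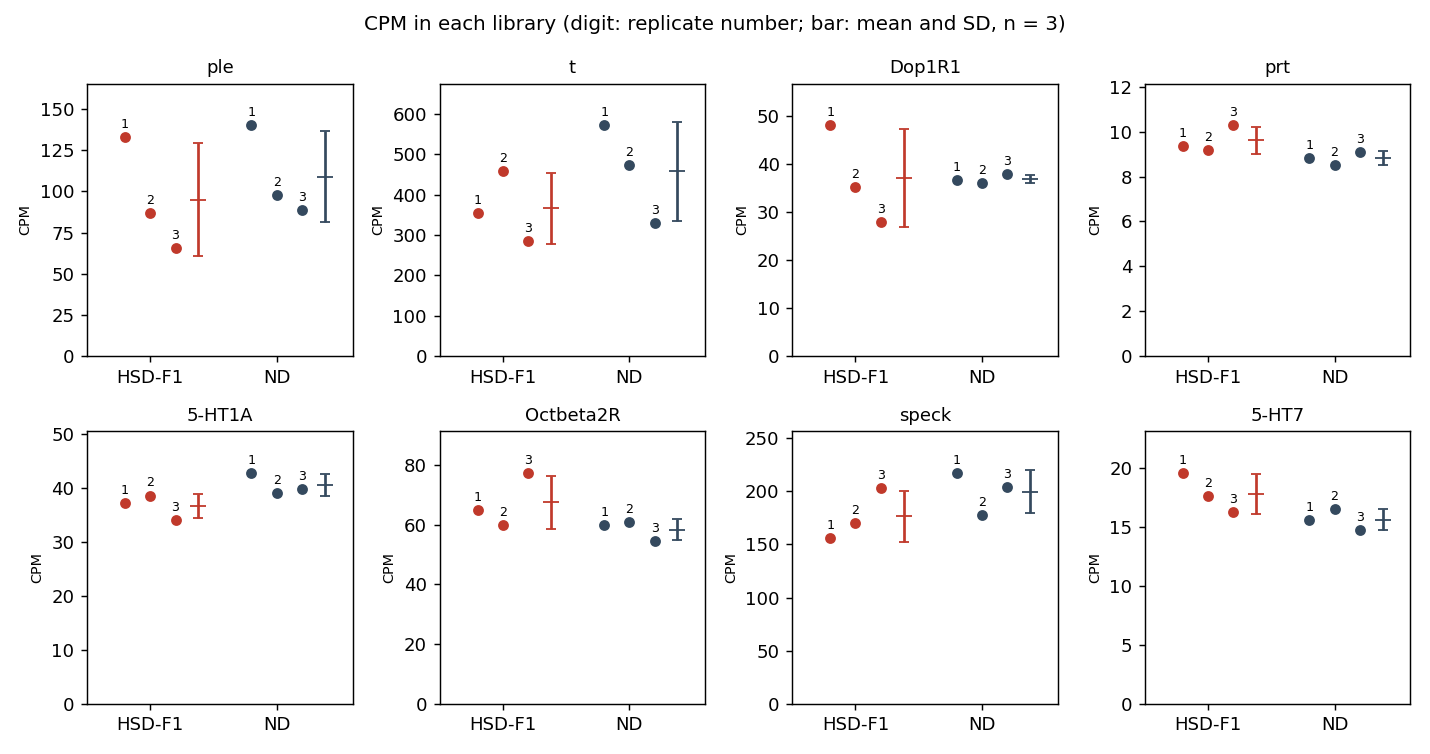
CPM of 8 genes in each HSD-F1 library (red, left) and each ND library (dark, right), with the replicate number above each point and the mean and SD (n = 3) beside it; all axes start at 0. ple and t (tan) vary widely within both groups, Dop1R1 within HSD-F1 only (28.0 to 48.2 CPM), and only prt and 5-HT1A have groups that do not overlap, by small margins.

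Ratios of 6 pairs of genes were formed within each library, since a ratio does not depend on how the libraries are scaled. They were ple to Ddc, Tdc1 to Tdc2, Vmat to DAT, tan to ebony, Tbh to Tdc2 and SerT to DAT. The groups overlapped in each of them, and the lowest p-value of a two-sided exact permutation test was 0.4 (tan to ebony, 0.84 after Benjamini-Hochberg adjustment over the 6 ratios). SerT to DAT was 1.172 to 1.73 in HSD-F1 and 1.21 to 1.83 in ND.

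The dopamine receptors divided into 1 abundant and 3 scarce genes. DopEcR (Dmel_CG18314, chromosome 3L, 4367649 to 4380387, minus strand), which responds to both dopamine and ecdysteroids, had 309, 316 and 294 CPM in HSD-F1 and 286, 310 and 336 CPM in ND, or 71.9 CPM per kb. Dop2R, the D2-like receptor that also acts on dopamine neurons themselves, followed at 3.71 CPM per kb, and the D1-like receptors Dop1R2 and Dop1R1 at 3.26 and 2.54 CPM per kb. The ranges of neighbors among these 3 overlapped, so their order per kilobase is not resolved. That order depends on the exon length, which was 14.6 kb for Dop1R1, 6.53 kb for Dop2R and 5.16 kb for Dop1R2. In CPM, Dop1R1 was above Dop2R and Dop1R2 in every library. Dop2R was nearly constant, at 24.9, 24.4 and 24.2 CPM in HSD-F1 against 25.6, 21.8 and 24.3 CPM in ND. Dop1R2 averaged 17.2 ± 1.77 CPM in HSD-F1 and 16.5 ± 1.13 CPM in ND (SD, n = 3 each). Dop1R1, which is required for aversive and appetitive learning in the mushroom body, had 48.2, 35.3 and 28.0 CPM in HSD-F1 against 36.6, 36.2 and 37.96 CPM in ND. Its mean was nearly the same in both groups (37.1 CPM in HSD-F1 and 36.9 CPM in ND), while its coefficient of variation was 27.5% in HSD-F1 and 2.53% in ND. With 3 libraries a group, this difference in spread was not tested. Leaving out HSD-F1 replicate 1, the highest library and also the one with the highest neuronal marker sum, gave -0.22 for Dop1R1, and leaving out HSD-F1 replicate 3 gave 0.17.

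Within the octopamine and tyramine receptors, Octbeta1R, a β-adrenergic-like receptor (Dmel_CG6919, chromosome 3R, 22497215 to 22520078, plus strand), had the highest level per kilobase, 11.5, with 71.8, 62.9 and 51.6 CPM in HSD-F1 against 62.8, 59.4 and 65.2 CPM in ND. Octbeta2R and Oamb, the α-adrenergic-like receptor, lay next at 8.37 and 8.34 CPM per kb and could not be ordered, and the range of Octbeta2R also reached that of Octbeta1R. Octbeta2R had the largest positive estimate and the lowest unadjusted p-value of the 31 genes. It had 65.0, 60.0 and 77.4 CPM in HSD-F1 against 59.9, 60.8 and 54.5 CPM in ND, and HSD-F1 replicate 2 fell inside the ND range. The estimate was 0.21 ± 0.11 (edgeR, adjusted p = 0.911). Without HSD-F1 replicate 2 it was 0.28 (edgeR, unadjusted p under 0.05, adjusted p = 0.735), and without HSD-F1 replicate 3 it was 0.10. The microRNA gene mir-284 lies within an exon of Octbeta2R on the same strand and had 0 counts of its own.

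Oamb was one of the most constant genes, with 46.6 ± 1.59 CPM in HSD-F1 and 45.6 ± 1.95 CPM in ND (SD, n = 3 each) and an estimate of 0.03 ± 0.09. Octbeta3R had 32.8 ± 4.09 CPM in HSD-F1 and 35.1 ± 3.13 CPM in ND, and Oct-TyrR, which binds both octopamine and tyramine, had 13.1 ± 1.78 CPM in HSD-F1 and 13.1 ± 0.576 CPM in ND (SD, n = 3 each). TyrR and TyrRII, tyramine receptors that are neighbors on chromosome 3R, were the scarcest per kilobase at 2.04 and 0.922. TyrRII had 63, 133 and 97 counts in HSD-F1 and 100, 102 and 119 counts in ND, and its fold of 0.968 had one of the wider intervals, from 0.704 to 1.33. TyrR averaged 11.6 ± 2.17 CPM in HSD-F1 and 10.9 ± 1.85 CPM in ND (SD, n = 3 each).

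The serotonin receptors were led by 5-HT2A, a Gq-coupled receptor (Dmel_CG1056, chromosome 3R, 4612870 to 4633304, plus strand), with 63.3, 82.7 and 81.1 CPM in HSD-F1 against 70.4, 74.9 and 90.3 CPM in ND, or 14.3 CPM per kb. 5-HT1A and 5-HT1B, which lower cAMP, had nearly the same level per kilobase (7.68 and 7.64). 5-HT1B was 31.3 ± 1.74 CPM in HSD-F1 and 30.2 ± 2.48 CPM in ND (SD, n = 3 each), with a fold of 1.04 from 0.884 to 1.22. 5-HT7, the receptor that raises cAMP, had 19.6, 17.6 and 16.2 CPM in HSD-F1 and 15.6, 16.5 and 14.7 CPM in ND. Only HSD-F1 replicate 3 and ND replicate 2 crossed, and the estimate was 0.19 ± 0.11 (edgeR, adjusted p = 0.911). Without HSD-F1 replicate 3 it was 0.25 (edgeR, unadjusted p under 0.05, adjusted p = 0.852). 5-HT2B had 22.4, 15.6 and 13.9 CPM in HSD-F1 and 20.3, 14.8 and 18.2 CPM in ND, with replicate 1 the highest in each group, and an estimate of -0.04 ± 0.19.

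The spread within groups differed widely between the genes. Measured as the pooled SD of log2 CPM within groups, it was lowest for Vmat (0.05), Oamb (0.06) and Tbh (0.06) and highest for ple (0.44), tan (0.38) and 5-HT2B (0.30). The median over the 31 genes was 0.16, beside 0.19 over all genes tested, many of which had fewer counts. With single libraries omitted, between 0 and 2 of the 31 genes had an unadjusted p-value under 0.05, where between 3.62% and 6.75% of all genes did. These shares were 6.39% without HSD-F1 replicate 1, 6.75% without replicate 2 and 4.95% without replicate 3, and 3.62%, 3.78% and 3.78% without ND replicates 1, 2 and 3. The genes concerned were ple, tan, speck, Octbeta2R and 5-HT7, ple without HSD-F1 replicate 1, Octbeta2R without HSD-F1 replicate 2, speck and 5-HT7 without HSD-F1 replicate 3, and tan without ND replicate 3. With HSD-F1 replicate 1 and ND replicate 3 both left out, a setting chosen after the marker sums were seen, ple was the 1 gene called (log2 fold change -0.64, unadjusted p under 0.05, adjusted p = 0.843 in edgeR), where 5.51% of all genes were. No gene of the 31 had an adjusted p-value under 0.05 in any of these settings.

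**Figure D4:**
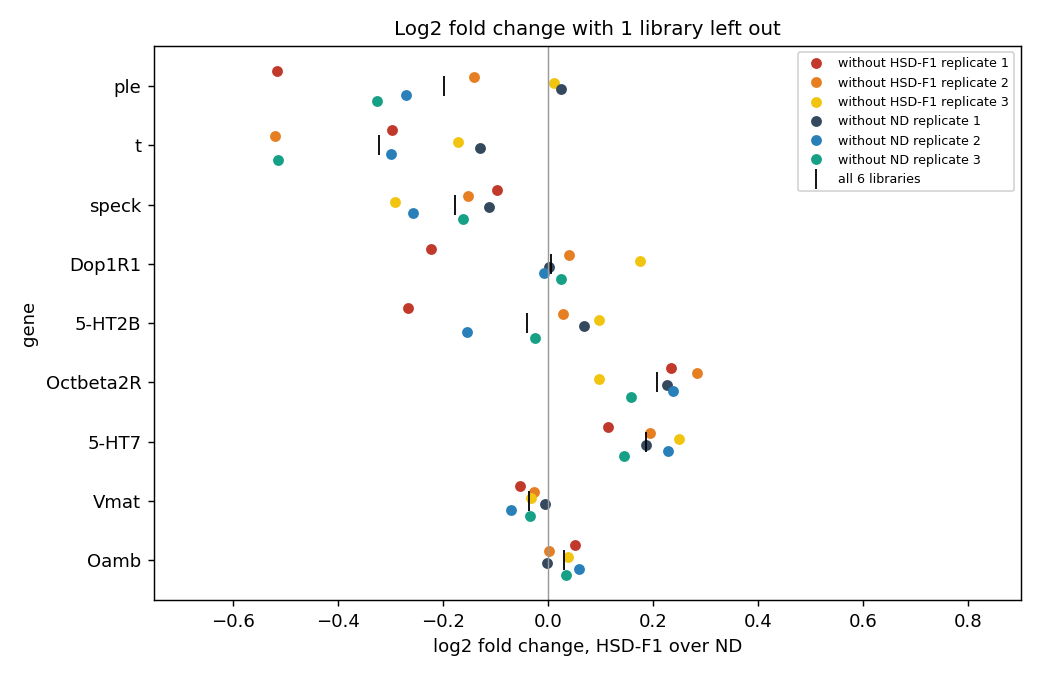
Log2 fold change of HSD-F1 over ND for 9 genes with all 6 libraries (black ticks) and with 1 library left out (colored points). The estimate of ple moves between -0.52 and 0.03 and that of t (tan) between -0.52 and -0.13, whereas those of Vmat and Oamb stay between -0.07 and 0.06.

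A further 25 genes of the same pathways were followed, of which 24 had enough counts to be tested. Balat, a β-alanine transporter, had 0 counts in every library. With edgeR, 0 of the 24 passed after adjustment, and 2 had an unadjusted p-value under 0.05, beside the 5.07% of all genes. DESeq2 and limma-voom also called 0 of the 24 at the adjusted threshold and 2 each at the unadjusted one. One of them was yellow-f, an enzyme of melanin synthesis that converts dopachrome (chromosome 3R, 12991449 to 12993201). It had 18.6, 14.7 and 17.4 CPM in HSD-F1 against 13.3, 13.0 and 11.6 CPM in ND, every HSD-F1 library above every ND library. The estimate was 0.42 ± 0.12 (edgeR, adjusted p = 0.911, exact permutation p = 0.1). It kept an unadjusted p-value under 0.05 with each library left out in turn, but not with HSD-F1 replicate 1 and ND replicate 3 both left out (log2 fold change 0.29). The other was dnc, the cAMP phosphodiesterase that acts downstream of dopamine and octopamine receptors in learning, with 365, 348 and 399 CPM in HSD-F1 against 323, 316 and 310 CPM in ND. The estimate for dnc was 0.23 ± 0.09 (edgeR, adjusted p = 0.911). Its unadjusted p-value was over 0.05 without HSD-F1 replicate 3 and without each of the 3 ND replicates, with estimates between 0.17 and 0.24. It was also over 0.05 with libraries scaled on pan-neuronal genes, with no filter beyond 1 count and with HSD-F1 replicate 1 and ND replicate 3 both left out, at estimates between 0.22 and 0.23. The groups also did not overlap for straw (stw), a laccase of the tanning pathway. It had 44.5, 44.7 and 38.4 CPM in HSD-F1 against 48.1, 49.1 and 47.9 CPM in ND (edgeR, adjusted p = 0.911). Complete separation of the libraries was thus seen for 3 of the 24 (yellow-f, dnc and straw), beside 11.8% of all tested genes.

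No other gene of these pathways was called at either threshold. Sptr, Pcd and Dhpr, which make or regenerate the tetrahydrobiopterin cofactor, had log2 fold changes of 0.12, 0.03 and 0.09, and Catsup, a regulator of tyrosine hydroxylase, had 0.02. Those of b, CarT, ine and Hdc, which supply β-alanine or serve the recycling and synthesis of histamine, lay between -0.15 and 0.14. Octalpha2R, the octopamine receptor outside the 31 genes, had 72.1, 55.6 and 63.0 CPM in HSD-F1 against 56.7, 57.0 and 56.3 CPM in ND, with a log2 fold change of 0.16. The adenylyl cyclase rut had -0.06 and the kinase subunit Pka-C1 0.06, and the G-protein subunits Galphas, Galphao and Galphaq had -0.15, 0.01 and -0.07. Over the 24 genes, 14 had a positive and 10 a negative log2 fold change, with a median of 0.02.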

How the data were processed

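Head RNA was purified with oligo(dT) beads and sequenced as paired ends. The authors kept uniquely mapped reads and deposited, for each library, whole-number counts of reads per gene without normalization, with merged exon lengths (other columns give positions). Per the labels, HISAT2 2.0.4, Bowtie2 2.2.5, RSEM 1.2.12 and DESeq2 1.4.5 are named in the submitters' processing notes without a role. The counting program and its use of strand are not given in the sources used here. Locus tags carried RefSeq coordinates of Release 6, and all 31 genes matched RefSeq's table by locus tag, with the same start and end. No sequence was printed.

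The 12048 genes whose counts summed to 10 or more were analysed in R 4.3.3 with edgeR 4.0.16 (TMM, glmQLFit, glmQLFTest, group as the only term). Standard errors came from the coefficient and F statistic, and 95% intervals from the t distribution with the fit's degrees of freedom. The models were tested on simulated data. limma 3.58.1 and DESeq2 1.42.0 were alternatives. Spread within groups used log2(CPM + 0.1). All pairs of libraries differed by more than counting noise. The p-values set the difference between groups against the variation between these libraries. Every gene of the set was to be accounted for, with values per library for genes called, genes whose groups did not overlap and the most abundant of each role; other genes given per library were chosen after their values were seen. The genes and lists were chosen with earlier results of these data known. The values of 1 gene of the related list are not reported here, although the counts over that list include it.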

Additional observations from a re-analysis of the deposited data

How the results depend on the processing

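No gene of the 31 had an adjusted p-value under 0.05 in any of the settings tried. With 7 other settings of scaling, filter, test and model, 0 of 31 passed the unadjusted threshold. With 1 library left out this count ranged from 0 to 2, and the 31 log2 fold changes had medians from -0.040 to 0.019. With HSD-F1 replicate 1 and ND replicate 3 both left out, a setting chosen after seeing the data, it was 1 (ple), which also passed 1.5-fold (1 gene). Of the 24 related genes, 1 had an unadjusted p-value under 0.05 when libraries were scaled on pan-neuronal genes, 1 with no filter beyond 1 count and 1 with the replicate block (dnc was lost in each, at a log2 fold change of 0.23, 0.22 and 0.22), against 2 in the main analysis, 0 with both libraries left out, and 1 to 3 with 1 left out. The cause was not tested.

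Nothing in the labels says that replicate numbers pair the libraries, and the data gave a mixed hint. Deviations of same-numbered libraries correlated at 0.245 for replicate 1 and 0.279 for replicate 3, the highest of the 9 pairs, but at 0.00838 for replicate 2, and HSD-F1 replicate 2 correlated best with ND replicate 1 (0.0704). The replicate block changed no call among the 31 genes. It lowered the unadjusted edgeR p-values of ple and tan to between 0.05 and 0.1. Their log2 fold changes were -0.23 and -0.31, with edgeR adjusted p-values of 0.898 and 0.896. In each of the 3 same-numbered pairs, ple, tan, Hn, SerT, speck and 5-HT1A were lower in HSD-F1. Trhn, Tbh, prt, Oamb, 5-HT1B and 5-HT7 were higher in HSD-F1 in each pair. The share of all genes with 1 direction in every pair was not computed.

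Signs near 0 were not stable. Tdc2 was 0.0024 with limma-voom, and Dop1R1 was -0.014 with pan-neuronal scaling, -0.031 with limma-voom and -0.026 with the replicate block. With both libraries left out, the sign turned for Ddc (0.0083), Hn (0.016), Dop1R1 (-0.20), Dop1R2 (-0.040), DopEcR (0.032), TyrR (-0.18), TyrRII (0.18) and 5-HT2A (0.17). With 1 library left out, log2 fold changes crossed 0 for 19 genes. Their ranges were -0.52 to 0.026 for ple, -0.052 to 0.028 for Ddc, -0.19 to 0.0044 for Hn, -0.11 to 0.077 for Pu, -0.23 to 0.044 for Tdc1, -0.21 to 0.087 for Tdc2 and -0.22 to 0.00013 for DAT. Among dopamine receptors they were -0.22 to 0.17 for Dop1R1, -0.00023 to 0.14 for Dop1R2, -0.024 to 0.091 for Dop2R and -0.076 to 0.038 for DopEcR. Among octopamine and tyramine receptors they were -0.0015 to 0.059 for Oamb, -0.13 to 0.11 for Octbeta1R, -0.17 to 0.00027 for Octbeta3R, -0.11 to 0.086 for Oct-TyrR, -0.046 to 0.22 for TyrR and -0.26 to 0.10 for TyrRII. For serotonin receptors they were -0.13 to 0.061 for 5-HT2A and -0.27 to 0.097 for 5-HT2B. With 3 libraries a group, changes well under 1.5-fold could not be resolved for most of these genes.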
